A study of Mus musculus with 4 samples.

Results

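Adcyap1 and Nts encode 2 neuropeptide precursors, and their log ratios between MK-801 and saline dentate gyrus were followed at 1, 2, 4 and 6 h. Members were all features of the series' value table whose platform gene symbol is Adcyap1 or Nts, which gave 3 features of 16281: feature 6300 and feature 16967 for Adcyap1, and feature 11751 for Nts. All 3 had a value on all 4 arrays. The genes were chosen by measured values, their log ratios over these same arrays, so their values are given as a description, with no test.

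Young male C57BL/6J mice were injected with saline, at 5 µL for each g of body weight, or with MK-801, at 300 µg for each g. On each of 4 two-colour arrays, hippocampal dentate gyrus RNA of the saline mice carried Cyanine-3 and that of the MK-801 mice Cyanine-5. MK-801 blocks the channel of the NMDA-type glutamate receptor. The dose is printed as the labels have it, and an error of unit there was not tested. The labels time the samples from the last shock of the MK-801 mice and call the RNA of both channels that of control mice, which leaves unclear whether shocks were given here, and neither pooling nor the exact age is stated. There was 1 array for each time and no dye swap, so no value has a replicate error of its own, and a dye bias of a feature cannot be told apart from treatment.

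The deposited values are log ratios whose base and direction are not stated. They are read here as log2, and a fold would be larger if they were natural logarithms. A positive value means more RNA in either the MK-801 or the saline channel, the same one on all 4 arrays if these run alike, and every statement below holds with the treatments exchanged. Each array was centred on the median of its features with a value (exact 0 was taken as no value). As a measure of error within an array, the pooled SD between features of the same gene was 0.37, 0.34, 0.57 and 0.46 on the arrays of 1, 2, 4 and 6 h (1685, 1519, 1236 and 1271 genes with at least 2 features). This SD leaves out the spread between mice, and pairs of features that differ strongly raise it. The median absolute difference between 2 features of a gene was smaller, at 0.29, 0.20, 0.18 and 0.15 at 1, 2, 4 and 6 h. In RNA of a whole region, fewer cells of a type and less RNA per cell cannot be told apart.

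Neuropeptides are made as precursors, cut at pairs of basic residues by prohormone convertases, trimmed and often amidated in dense-core granules, and released to act on G protein-coupled receptors. The Adcyap1 product PACAP acts through the receptors PAC1 (Adcyap1r1), VPAC1 (Vipr1) and VPAC2 (Vipr2) and raises cyclic AMP. In neurons its gene is known to respond to activity and to cyclic AMP. The Nts product, neurotensin, acts through Ntsr1 and Ntsr2 and binds sortilin (Sort1), and it is known as a modulator of dopamine signalling. The Nts promoter is a textbook case of joint control by AP-1 and cyclic AMP response elements placed close together.

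The promoter sequences are shown because these elements are what the genes are known for, and they carry no measurement of their own. For Nts, the RefSeq start site in build GRCm38.p6 lies on the minus strand of chromosome 10, and the 250 bases before it, chr10:102490419-102490668, follow with the motif matches in capitals. For Adcyap1 the RefSeq table holds 2 overlapping start sites on the plus strand of chromosome 17, at 93199017 and 93199168, and only the 30 bases chr17:93198914-93198943 around its TGACG match are shown, since the stretch before the second start runs through bases after the first.
Nts: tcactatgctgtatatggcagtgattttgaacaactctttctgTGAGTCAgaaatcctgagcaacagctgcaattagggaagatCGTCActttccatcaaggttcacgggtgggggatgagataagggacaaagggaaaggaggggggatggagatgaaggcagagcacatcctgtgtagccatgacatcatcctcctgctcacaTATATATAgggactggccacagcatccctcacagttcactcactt
Adcyap1: ggactaggatgcTGACGtcttttactgata

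The motifs searched on both strands were the full cyclic AMP response element TGACGTCA, its core TGACG, the AP-1 site TGANTCA, and TATATA and TATAAA. In the Nts sequence the capitals mark an AP-1 match 207 to 201 bases before the start, the core on the opposite strand (CGTCA) 166 to 162 bases before it, and 2 overlapping TATATA matches that together span 45 to 38 bases before it. The Adcyap1 core lies 91 to 87 bases before the first start and 242 to 238 before the second, and overlapping TATATA and TATAAA matches lie 60 to 53 bases before the second. The full element TGACGTCA was found in neither gene's windows. Of 32851 promoter windows of 250 bases, 1.55% held TGACGTCA, 17.8% TGACG, 6.75% TGANTCA, 5.25% TATATA and 12.4% TATAAA. These matches describe letters and are not evidence of binding.

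Nts had 1 strongly negative ratio, at 1 h, and was weakly positive at each later time. Its feature read -1.75 at 1 h, then 0.26, 0.35 and 0.46 at 2, 4 and 6 h. The 1 h value corresponds to a 3.37-fold difference between the channels on the log2 reading, and the later values to 1.20-, 1.27- and 1.38-fold differences the other way. Of 12131 features with a value at 1 h, 1 read lower than Nts (Crim1, at -2.26), and Sdc3 followed Nts at -1.75.

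At 1 h, 0.412% of features lay at or below -1, and 1 of the 3 member features, that of Nts, was among them. The size of the Nts ratio was 4.69 times the pooled SD between features of the same gene at 1 h, and at 2, 4 and 6 h it was 0.76, 0.61 and 1.00 times that SD. Nts lay at or above 85.5%, 90.9% and 96.7% of the features with a value at 2, 4 and 6 h, so it stayed in the upper part of these 3 arrays without standing at their edge.

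The change in Nts fell between 1 and 2 h. Its ratio was 2.01 higher at 2 h than at 1 h. For scale only, the SDs between features of a gene on these 2 arrays combine to 0.50 when taken as independent. From 2 to 4 h the Nts ratio was 0.09 higher and from 4 to 6 h 0.12 higher, beside 0.66 and 0.74 on the same basis. That spread is between features within an array and does not measure the error of 1 feature's change over time. Averaged over 2, 4 and 6 h, Nts read 0.36 ± 0.10 (SD over 3 arrays of different times), 2.11 above its 1 h value. Among 8777 features with values on all 4 arrays, 1 had a larger rise from 1 h to the later mean (Crim1, 2.40), and Tex47 came next after Nts (2.10). The mean of Nts over all 4 arrays, -0.17 ± 1.06, hides this split.

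**Figure D1:**
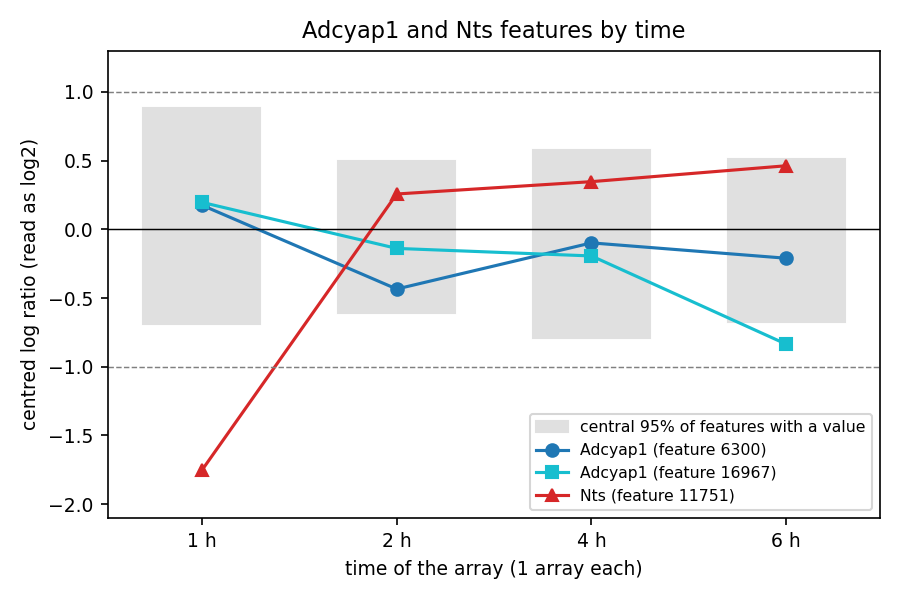
Centred log ratio (read as log2) of the 3 Adcyap1 and Nts features on the arrays of 1, 2, 4 and 6 h, with 1 array per time and hence no error bars; grey boxes span the central 95% of all features with a value on that array, and dashed lines mark 1 and -1. Nts lies far below the box at 1 h (-1.75) and inside it later, while both Adcyap1 features are slightly positive at 1 h and negative at each later time, with feature 16967 below the box at 6 h (-0.84).

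Adcyap1 showed the opposite order of signs and much smaller ratios. Feature 6300 read 0.18 at 1 h, then -0.43, -0.10 and -0.21 at 2, 4 and 6 h. Feature 16967 read 0.20, -0.14, -0.19 and -0.84 at the same times. Both features were thus positive at 1 h and negative on the 3 later arrays, but their lowest value came at different times, 2 h for feature 6300 and 6 h for feature 16967.

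Neither Adcyap1 feature passed 1 in either direction on any array, and neither did Nts after 1 h. The shares of all features at or above 1 were 1.71%, 0%, 0.108% and 0.114% at 1, 2, 4 and 6 h. Those at or below -1 were 0.957%, 2% and 1.44% at the 3 later times. At 1 h both Adcyap1 features lay near the middle of the upper side of the array, above 70.2% and 72.1% of features. Feature 6300 was lower than most at 2 h, where 5.20% of features lay below it, and feature 16967 at 6 h, where 1.77% lay below it. The size of the ratio of feature 16967 at 6 h was 1.81 times the pooled SD between features of the same gene, and that of feature 6300 at 2 h 1.28 times. The other 6 Adcyap1 values were between 0.17 and 0.53 times that SD, which is larger than the difference within a typical pair of features of a gene.

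The 2 Adcyap1 features read nearly the same value at 1 h, 0.02 apart, and differed most at 6 h, by 0.63. Of 1607 pairs of features that share a gene at 6 h, 9.52% differed by at least as much. At 2 h they differed by 0.30 and at 4 h by 0.10, differences that 34.9% and 66.0% of such pairs reached. The mean of both features was 0.19 at 1 h, then -0.29, -0.15 and -0.52 at 2, 4 and 6 h, and at 6 h it rests mainly on feature 16967.

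From 1 h to the mean of the later times, feature 6300 fell by 0.42 and feature 16967 by 0.59 on the log scale. Of the 8777 features with 4 values, 11.6% and 6.36% fell further. A positive sign at 1 h with negative signs at 2, 4 and 6 h, as in Adcyap1, was seen in 15% of these features, and the reverse, as in Nts, in 16.9%. The 1 h array as a whole ran apart from the others: its ratios correlated at -0.06 with those at 2 h and -0.07 with those at 4 and 6 h, while those of the later arrays correlated at 0.64 to 0.80 with each other (Pearson's r across 8777 features of these arrays, which are not independent replicates). The rank of the Nts step follows from how the gene was chosen and adds no support.

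Features with numbers close to those of Adcyap1 and Nts were set beside them, because ratios can drift over an array. How feature numbers map to places on the array is not known here. Around Nts, 17 of the 20 features within 10 numbers had a value at 1 h, from -0.48 to 0.97 with a median of -0.13, and 0 of them reached -1. At 1 h 0.412% of all features lay at or below -1, so a count of 0 among 17 was likely in any case. It cannot show whether a local shift had a part in the Nts value, which was not tested. The medians of these neighbours at 2, 4 and 6 h were 0.04, 0.10 and 0.10, and 2, 3 and 2 of them read at least as high as Nts.

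Around Adcyap1 feature 16967 the features of nearby number did lean with it at 1 h. Of 14 with a value, the median was 0.40, and 10 read at least as high as Adcyap1 itself. Set against that median, the 1 h value of this feature turned from 0.20 to -0.20, so its sign at 1 h depends on the features it is compared with. At 6 h, 7 such features had a value, from -0.96 to 0.07, and Gng3, 3 numbers away, read lower than Adcyap1 (-0.96), while Fgfr4, the feature numbered just before it, read -0.72. The feature numbered just after it, 1 of 2 of the somatostatin gene Sst, had a value at 1 h alone, 0.11. Around feature 6300 the medians were 0.04, 0.20, 0.09 and 0.09 at 1, 2, 4 and 6 h, and none of 12 features with a value at 2 h read as low as Adcyap1 there. The part of such local shifts in the Adcyap1 values was not tested beyond this.

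**Figure D2:**
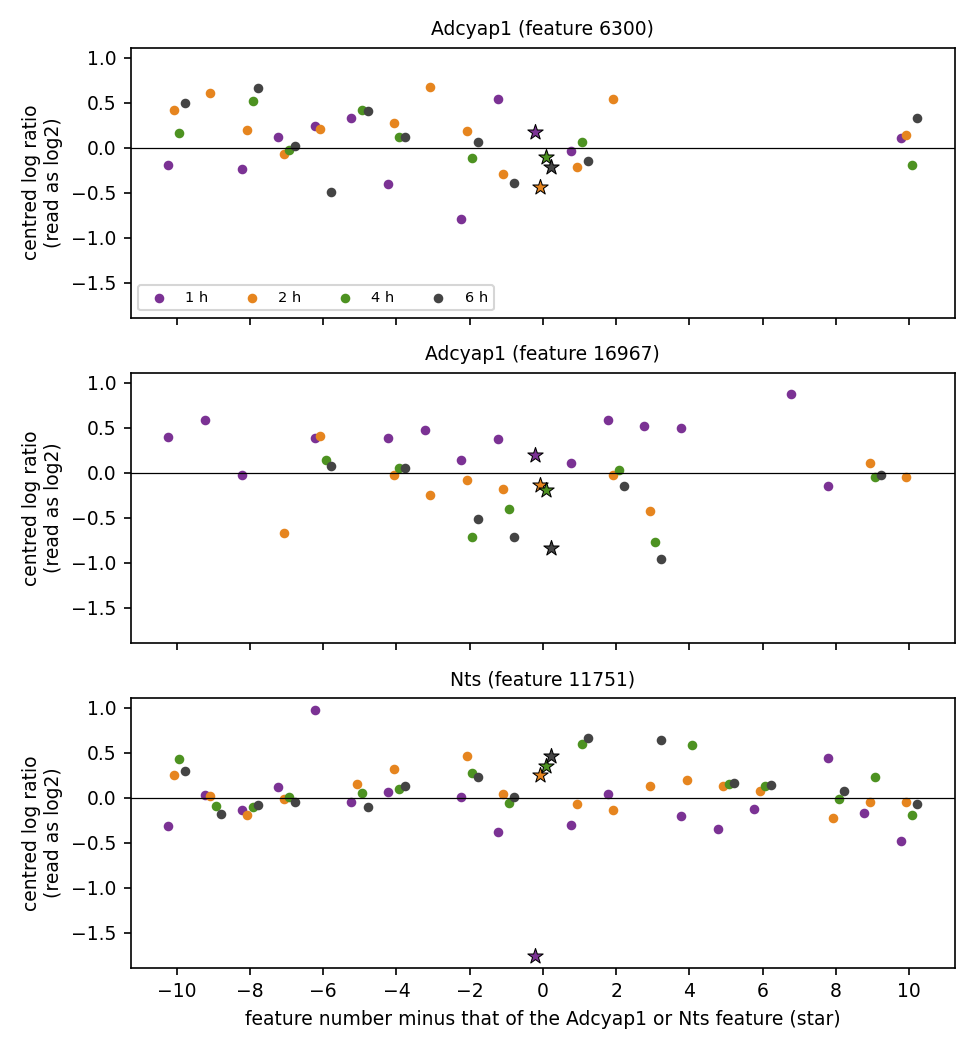
Centred log ratio (read as log2) of features within 10 numbers of each Adcyap1 and Nts feature, against the difference in feature number, with the Adcyap1 or Nts feature as a star and 1 colour for each time. No neighbour of Nts comes near its 1 h value of -1.75, on an array where 0.412% of all features lie at or below -1. Most neighbours of Adcyap1 feature 16967 are positive at 1 h (median 0.40). The 2 closest in value to the 6 h star of that feature are Fgfr4 (-0.72) and Gng3 (-0.96).

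The features most like each member were found by the Euclidean distance over the 4 centred ratios, among 7681 features of other genes with 1 symbol and values on all 4 arrays. Over 4 arrays many features can lie close, and likeness says nothing of shared control. Nearest to Nts was Nampt, at a distance of 0.55, with -1.30 at 1 h and 0.03, 0.50 and 0.33 later. Rfc4 (0.66), Sntb2 (0.70), Micalcl (0.72) and Popdc2 (0.77) followed, with 1 h values between -1.37 and -1.04. None came as close as the neighbours of Adcyap1, since few features are this low at 1 h. Second features of Nampt and Sntb2 read -0.09 and 0.49 at 1 h, so the low ratio at 1 h was not shared by the other feature of either gene. Nts has no second feature on this array against which its own could be read.

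Nearest to Adcyap1 feature 6300 were Emb (distance 0.05), Bglap (0.08), Zc3hav1 (0.08), Ptbp1 (0.09) and Ascl2 (0.11). They read 0.19 to 0.21 at 1 h and -0.49 to -0.33 at 2 h, where other features of Bglap and Zc3hav1 read -0.19 and -0.11. Nearest to feature 16967 were the potassium channel gene Kcnh3 (0.20), the adrenergic receptor gene Adra2c (0.21), the receptor gene Grpr (0.26), the growth factor receptor gene Fgfr4 (0.30) and Cecr2 (0.32), with -0.72 to -0.56 at 6 h on these features. Other features of Adra2c and Kcnh3 were less negative at 6 h (0.04 for Adra2c, -0.46 and -0.18 for Kcnh3), while that of Grpr read -0.59. The feature of Fgfr4 is the one numbered next to that of Adcyap1. The 2 Adcyap1 features share none of these 5 nearest genes.

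**Figure D3:**
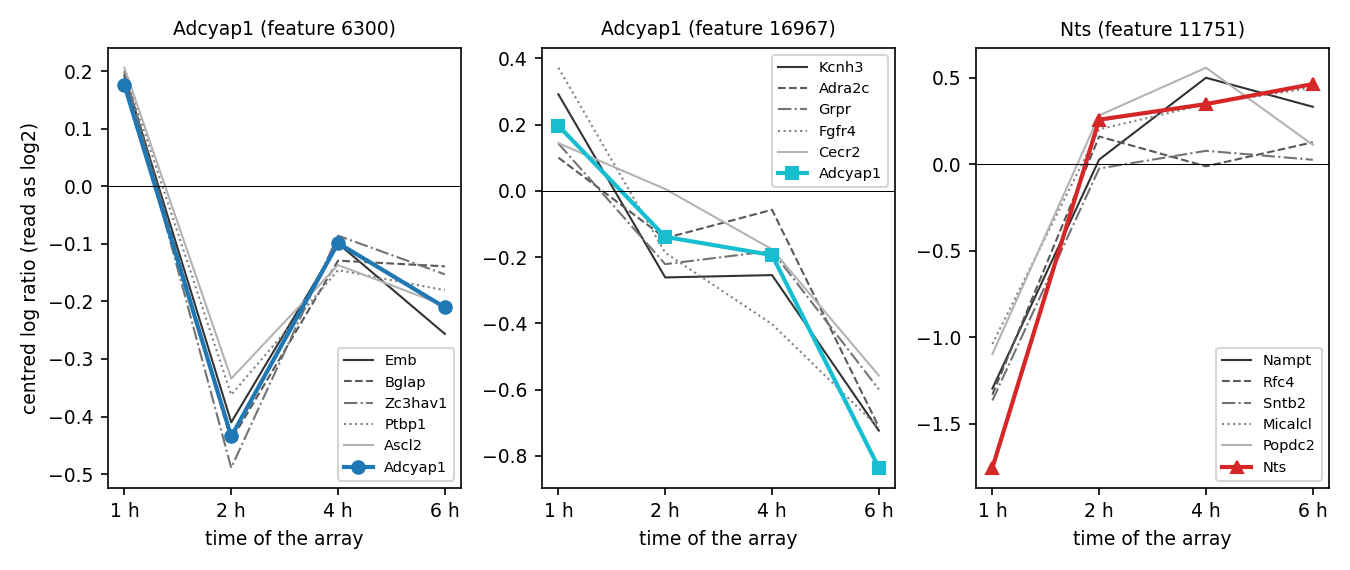
Centred log ratio (read as log2) at 1, 2, 4 and 6 h of each Adcyap1 and Nts feature (coloured) and of the 5 features of other genes nearest to it (grey), with a separate vertical scale in each panel. The neighbours of Adcyap1 feature 6300 follow it closely, at distances of 0.05 to 0.11, while those of Nts lie above it at 1 h, at distances of 0.55 to 0.77.

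The receptors of both peptides gave small ratios. Of the 8 receptor and sorting genes listed, all were on the array, with 12 features, and 0 features passed 1 in either direction at any time. The single feature of Adcyap1r1, the specific PACAP receptor, had a value at 2 h alone, 0.28. Vipr1, which also binds VIP, read -0.27, -0.12 and -0.18 at 1, 2 and 6 h on the 1 of its 2 features that had values. Vipr2 read -0.27 at 1 h and 0.45 at 2 h.

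Ntsr2, a low-affinity neurotensin receptor found mainly in astrocytes, was the receptor with the most complete data. Its 2 features read -0.26, 0.13, 0.08 and 0.18, and -0.07, 0.45, 0.26 and 0.24, both negative at 1 h and positive later, the order of signs seen in Nts. That order was seen in 16.9% of features with 4 values, and both 1 h values were smaller in size than the pooled SD of 0.37. Ntsr1, the high-affinity receptor, read 0.20, 0.13, 0.43 and 0.01 on 1 feature, while another had a value at 1 h alone, -0.71. Sort1 read 0.21 at 1 h on 1 feature and -0.04 and -0.02 at 4 and 6 h on another. Sorl1, a sorting receptor related to sortilin, read -0.01, 0.37, -0.16 and 0.06, and Ramp2, a receptor accessory protein, had a value at 1 h alone, -0.05. Over all features of the list the medians were -0.07, 0.28, 0.08 and 0.03 at 1, 2, 4 and 6 h (9, 7, 5 and 6 values), beside 0 over all features of each array.

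The related lists were also tested for a mean ratio shared by the 4 times, with limma (lmFit and eBayes, two-sided, Benjamini-Hochberg adjustment over 8777 features). In this fit 0% of features passed an adjusted p of 0.05 in either direction, with 606 positive and 689 negative at an unadjusted p under 0.05, and so 0 features of any list passed. With array weights 1235 positive and 1171 negative features passed. Without the 1 h array 6.47% of features passed as positive and 5.59% as negative. P-values rest on arrays of different times and measure the spread between them.

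Genes that make, store and cut neuropeptides had medians near 0. Of the 30 in the list 25 were on the array, with medians of 0.05, 0.01, 0.02 and 0.06 at 1, 2, 4 and 6 h over 36, 33, 29 and 31 values. The prohormone convertase gene Pcsk1 was positive on 1 feature at every time (0.56, 0.19, 0.60 and 0.36), while its other feature read 0.31, -0.29, 0.08 and -0.09. Pam, which amidates peptides, read -0.30, -0.01, -0.08 and 0.27, and Cpe, which trims basic residues, had 2 features without a value on any array. The granule genes Scg2 and Chga differed: the 2 features of Scg2 read 0.07, 0.13, 0.16 and 0.07, and 0.28, -0.01, 0.03 and 0.00, and Chga read -0.51, -0.28, -0.22 and -0.28. Pcsk5 had a value at 6 h alone, -1.09, the 1 value of this list past 1.

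Without the 1 h array, 3 of 29 features of the processing list passed in limma, Pcsk1 (the feature of higher ratio, adjusted p = 0.0486) and the protease gene Ctsh (0.0406) as positive and Chga (0.0406) as negative. Among the receptors 1 of 4 features passed, that of Ntsr2 with the higher ratios (adjusted p = 0.0406, limma, positive). With 6.47% and 5.59% of all features called in that fit, 1 to 3 features in a list this short do not set it apart.

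Among other neuropeptide genes, 40 of 53 were on the array. The list's medians were -0.04, 0.08, 0.09 and -0.02 at 1, 2, 4 and 6 h, with 22 of 46, 25 of 40, 20 of 30 and 16 of 35 values positive, and its lowest value at 1 h was -0.78, that of Nppc. The somatostatin gene Sst read -0.55 at 1 h and 0.11, 0.24 and 0.07 later on the feature with 4 values, while its other feature, the one numbered next to that of Adcyap1, read 0.11 at 1 h. Npy read -0.08, 0.19, 0.18 and 0.10 on 1 feature, and 0.58 and 0.39 at 4 and 6 h on another. Vip, the closest relative of PACAP here, read -0.10, -0.02, 0.36 and 0.32, against the negative later ratios of Adcyap1.

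Of the opioid precursors, Penk and Pdyn gave no value past 1. Penk read -0.21, 0.07, 0.32 and 0.05 on the feature with 4 values and 0.07 and -0.20 at 1 and 2 h on another, and the 2 features of Pdyn lay between -0.22 and 0.09 on all arrays. Tac1, the substance P precursor, lay between -0.26 and 0.14 on its 2 features, and Cck read -0.35, 0.22, 0.00 and 0.02 on 1 feature and 0.16 and 0.17 at 4 and 6 h on another. Values past 1 were those of Pomc at 1 h (1.32, with another feature at 0.32) and of Trh at 4 and 6 h (-2.18 and -2.17, from a feature without values at 1 and 2 h; another read 0.14 at 2 h). Without the 1 h array 4 of 24 features passed in limma: the nociceptin precursor Pnoc as positive (adjusted p = 0.0416), and Oxt (0.0472) and both features of the somatostatin relative Cort (0.0398 and 0.0399) as negative, beside 6.47% and 5.59% of all features. Other features of Pnoc and Oxt read 0.36, -0.04 and 0.32 at 2, 4 and 6 h and -0.19 and 0.38 at 1 and 2 h. Of the genes called in this list, Cort had the order of signs seen in Adcyap1, at 0.12, -0.34, -0.23 and -0.27 on 1 feature and 0.08, -0.34, -0.23 and -0.26 on the other. Called features of the signalling and marker lists below had it too, such as those of Gnas, Prkcd, Bok, Flt1 and Kl. That order was seen in 15% of features with 4 values.

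**Figure D4:**
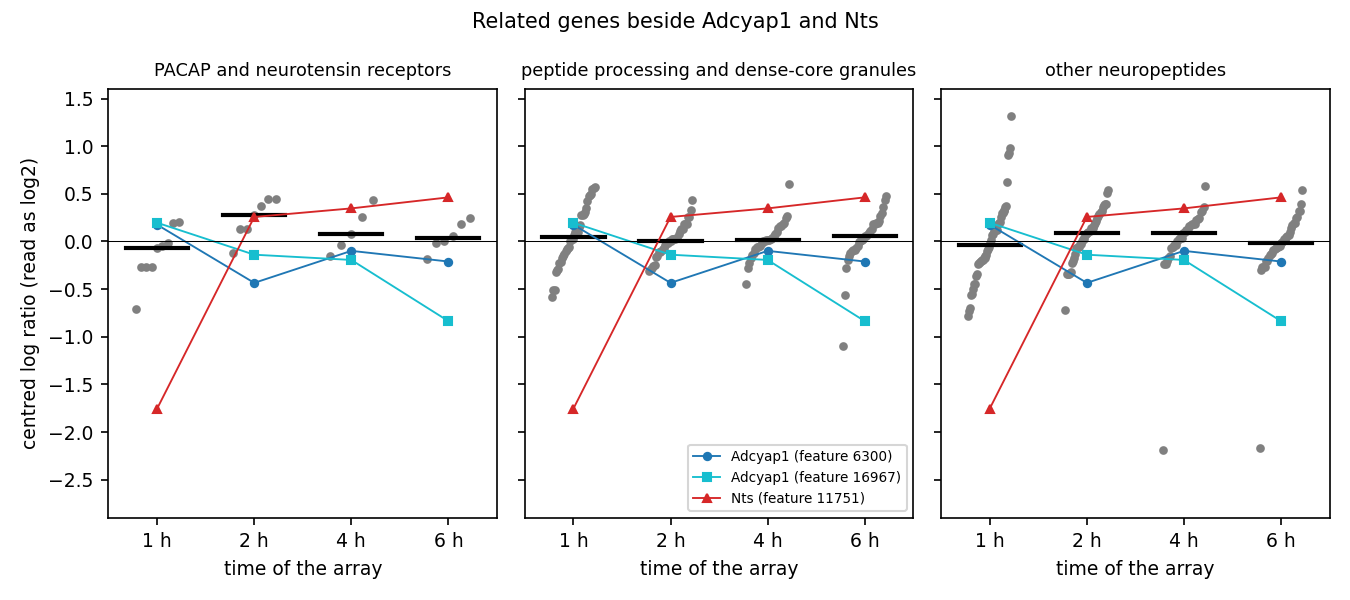
Centred log ratio (read as log2) of every feature of 3 lists with a value (grey points) at 1, 2, 4 and 6 h, with the list's median as a black bar and the 3 Adcyap1 and Nts features as coloured lines in each panel. At 1 h no feature of the 3 lists is as low as Nts (-1.75), a value below which 1 of all 12131 features lay, so this does not set Nts apart from these lists. The bars stay between -0.07 and 0.28.

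Secreted factors known to respond to neuronal activity, and the signalling chain of the receptors, were described by their counts and medians. The activity list (16 of 22 genes on the array) had medians of 0.10, 0.03, 0.10 and 0.03, with 13 of 22, 13 of 22, 11 of 17 and 9 of 18 values positive. These ran from -0.72 to 0.73, so 0 passed 1. Bdnf read 0.73 at 1 h on 1 feature, with -0.20, 0.00 and 0.07 later, and 0.00, 0.24, 0.20 and 0.28 on the other. The latter passed in limma without the 1 h array (adjusted p = 0.0472, positive), as 1 of 17 features of the list, beside 6.47% of all features.

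For the cyclic AMP and calcium list, 19 of 32 genes were on the array. The medians were -0.02, 0.09, 0.10 and 0.06, with 11 of 28, 15 of 28, 20 of 28 and 19 of 27 values positive. The list thus had the order of signs of Nts, but with medians close to 0. Its values past 1 came from 1 feature of the phosphodiesterase gene Pde10a (-2.64 at 4 h and -2.77 at 6 h), whose other feature stayed between -0.11 and 0.01. Without the 1 h array 4 of its 25 features passed in limma, those of the protein kinase A subunits Prkacb (adjusted p = 0.00928) and Prkar1b (0.0271) and of Pde4b (0.0485) as positive and that of the stimulatory G protein Gnas (0.0484) as negative, beside 6.47% and 5.59% of all features. The called feature of Prkacb read -0.41, 0.60, 0.59 and 0.58 at 1, 2, 4 and 6 h, and its other feature 0.11, -0.52, 0.21 and 0.12. For Pde4b the called feature read -0.50, 0.15, 0.59 and 0.47. Its other feature had the same signs up to 4 h but smaller later ratios, at -0.28, 0.12, 0.06 and -0.04. The called Gnas feature read 0.06, -0.23, -0.43 and -0.21. Others of Gnas had values at 1 h alone (0.85 and 0.28), a time outside that fit, so they cannot be set against the call.

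Markers of cells that the dissected tissue could hold were read in the same way, although ratios say nothing of their level and so cannot show whether the tissue matches its label. Granule cell markers had medians of -0.19, -0.005, 0.23 and 0.04 at 1, 2, 4 and 6 h. Medians with the order of signs of Nts were those of 2 lists: inhibitory neuron markers, with 5 of 20, 10 of 20, 15 of 21 and 16 of 22 values positive (medians -0.12, 0.01, 0.09 and 0.07), and vessel markers, with 5 of 11, 7 of 13, 6 of 11 and 8 of 10 (-0.006, 0.002, 0.09 and 0.15). Granule cell markers miss that order by a 2 h median as close to 0 as those of the vessel list, so the signs do not separate these lists. The medians of hilar mossy cell markers had the order of signs of Adcyap1 (0.15, -0.14, -0.10 and -0.12), with 6 of 9, 3 of 8, 3 of 6 and 1 of 6 values positive. These medians rest on a changing set of features. The single mossy cell features with 4 values did not have that order, such as Drd2 (0.40, -0.20, 0.31 and 0.30) and Nmb (0.21, -0.23, 0.04 and -0.14). Of all single features with 4 values, 16.9% had the order of Nts and 15% that of Adcyap1, shares that do not apply to medians of lists. Markers of CA1, CA3 and subiculum gave -0.20, 0.00, -0.01 and 0.10, those of thalamus and hypothalamus -0.06, -0.01, -0.17 and -0.32, and those of choroid plexus -0.23, -0.20, -0.23 and -0.14.

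Single markers went further than these medians. The endothelial junction gene Cldn5 read -1.05 at 1 h and 0.38, 0.00 and 0.05 later, the marker past 1 at 1 h. At later times Kl, of choroid plexus, read -2.64, -3.03 and -3.18 on 1 feature, while another read -0.20, -0.11 and -0.09. Of the thalamus and hypothalamus list, Rora read -1.47, -2.07 and -2.13 at 2, 4 and 6 h, and Tnnt1 -2.82 at 6 h on 1 feature and 0.54 on another. Without the 1 h array limma called 3 of 10 features of the thalamus and hypothalamus list (Oxt, Prkcd and Rora), 2 of 7 of choroid plexus (Kl and Ttr) and 1 of 5 of CA1, CA3 and subiculum (Bok), all negative. In the same fit 2 of 8 vessel features were called, Esam as positive and Flt1 as negative, and 0 of the granule cell, inhibitory neuron and mossy cell lists. Over all features this fit called 6.47% as positive and 5.59% as negative, and each marker list holds few features. The part of these marker shifts in the Adcyap1 and Nts ratios was not tested.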

How the data were processed

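The authors' deposited table holds, per array, log ratios of the channels, read here as log2 (base and direction are not stated, and scanning, background correction and normalisation not given in the sources used here). Exact 0 filled 25.5%, 24.9%, 37.4% and 35.4% of features at 1, 2, 4 and 6 h, no other value occurred more than 3 times, and exact 0 was taken as no value, which left 12131, 12227, 10185 and 10512 features. Of 16281 features, 13738 had 1 gene symbol in the platform annotation, 52 had several, and 13694 Entrez identifiers matched the RefSeq table of GRCm38.p6, with 0 symbols changed. The number of arrays limits precision, and no intensities were used. Values were centred on array medians. A feature was called at 1 time when its ratio was at least 1 in size. limma 3.58.1 (R 4.3.3) tested the mean of 4 arrays. A run on simulated data required only that the mean size of added shifts be recovered. Its arrays were drawn independently, unlike the correlated later arrays, so it does not check the calls made here. Genes were named by rule: every feature of Adcyap1 and Nts, the 5 nearest features of each, every receptor, features past 1 of the peptide, activity and signalling lists, and Pcsk1, Pcsk2, Cpe, Pam, Scg2, Vgf, Npy, Sst, Penk, Pdyn, Tac1, Cck, Vip and Bdnf where measured. Features called without the 1 h array, single cell type markers, Chga, Nppc, Gng3 and Crim1, Sdc3 and Tex47 were named after their values were seen. Members and lists were chosen with earlier results of these data known. Alternatives changed centring, scaling, the features entering, zeros, weights and arrays.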

Additional observations from a re-analysis of the deposited data

Results flagged for a closer look

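The 3 Adcyap1 and Nts features each had 1 sign at 1 h and the opposite sign at 2, 4 and 6 h. Of features with 4 values, 15% had the order of Adcyap1 and 16.9% that of Nts. Both Adcyap1 values at 1 h were smaller than the pooled SD, and that of feature 16967 became -0.20 against the features of nearest number. The mean of the later times minus the 1 h value was 2.11 for Nts, -0.42 for Adcyap1 feature 6300 and -0.59 for Adcyap1 feature 16967. With 1 array at 1 h, and with the genes picked for how they vary with time, these differences were not tested.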

How the results depend on the processing

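The Nts ratio at 1 h moved from -1.75 to -1.35 with arrays brought to equal median absolute deviation and to -3.17 with quantile normalisation, and stayed below -1 in both. Against the features of nearest number, an alternative chosen after seeing the data, Adcyap1 feature 16967 at 1 h became -0.20. These were 3 of 60 comparisons (12 member values under 5 alternatives), and in the other 57 the value moved by less than the SD between features of a gene. That SD is larger than most Adcyap1 ratios, so the count says little about how firm these are. With equal spread, the 1 h array had 48 features past 1 and 7 past -1 (208 and 50 in the main setting), and 24 were past 1 at 4 h (11) and 31 at 6 h (12). With values on all 4 arrays required, 28 were past 1 and 31 past -1 at 1 h, 61 past -1 at 2 h (117) and 53 at 4 h (204), and 6 past 1 and 50 past -1 at 6 h (12 and 151). In limma on the mean, 0 features passed in the main setting. Array weights gave 1235 positive and 1171 negative, values on at least 3 arrays 19 negative, and quantile normalisation 9 negative. Leaving out 1 array gave 0 to 568 positive and 0 to 491 negative, the upper figures without the 1 h array and 0 without any other. The cause of these changes was not tested. No paired analysis was possible because each time has 1 array and the labels carry no replicate numbers. Without intensities, signal over background could not be examined for any of the 3 features.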
